A study of Mus musculus with 14 samples.

Results

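The 4 annexin genes Anxa1, Anxa2, Anxa3 and Anxa11 were followed in mouse blood neutrophils. They were taken by symbol from the 11288 genes of the deposited table of normalised read counts, and all 4 passed the filter on low values. The 14 libraries fell into 5 groups. 3 libraries were labelled CXCR4f/f x Mrp8Cre, 2 CXCR2f/f x Mrp8Cre and 3 BMALf/f x Mrp8Cre, all taken at zeitgeber time 5 (ZT5, counted from the onset of light), a clock time of 12 h. Wild-type C57BL/6 mice gave 3 libraries at ZT13 (20 h) and 3 at ZT5. All donors were male and 7 to 10 weeks old. Mrp8Cre is a Cre recombinase driven by the MRP8 promoter, which is active in neutrophils and their precursors, and it removes the floxed segment there. Every group labelled as mutant carries the Cre and neither wild-type group does, so in a comparison with wild type the Cre and the deletion cannot be told apart. It is not stated whether the replicates are separate animals, so p-values measure only the spread between these libraries, which may be technical.

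Annexins are proteins that bind negatively charged membrane lipids when calcium rises. They share a core of repeated domains and differ in the tail before it. Anxa1 is among the abundant cytoplasmic proteins of human neutrophils. Its released tail acts on formyl peptide receptors and is known for limiting neutrophil adhesion and promoting the resolution of inflammation. Anxa2 links membranes to actin and, with its partner S100a10, binds plasminogen and its activator at the cell surface. Anxa3 is known from human neutrophils, where the protein associates with granule membranes. Anxa11 has a long tail rich in proline and glycine and binds the calcium sensors S100a6 and Pdcd6.

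The first 78 bases of each coding sequence are shown because the tail, the part that differs most among annexins, begins there. They were read from GENCODE transcripts of GRCm38, and capitals mark the start codon.
Anxa1: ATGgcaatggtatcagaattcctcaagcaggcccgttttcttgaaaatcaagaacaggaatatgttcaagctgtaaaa
Anxa2: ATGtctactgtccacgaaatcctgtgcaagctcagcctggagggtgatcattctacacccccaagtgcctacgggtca
Anxa3: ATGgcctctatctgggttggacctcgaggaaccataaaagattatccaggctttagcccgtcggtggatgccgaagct
Anxa11: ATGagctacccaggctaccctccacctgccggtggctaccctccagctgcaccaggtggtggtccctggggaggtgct
The coding sequences hold 346 codons before the stop in Anxa1, 339 in Anxa2, 323 in Anxa3 and 503 in Anxa11, whose tail is the longest of these. Anxa1 lies on the minus strand at chr19:20373428-20390944, Anxa2 on the plus strand at chr9:69453620-69491795, Anxa3 on the plus strand at chr5:96793339-96845966 and Anxa11 on the plus strand at chr14:25842156-25886804 (GRCm38). Anxa11 overlaps the exons of the antisense gene Anxa11os by 113 bases, and Anxa2 overlaps those of the antisense gene Gm16144 by 98 bases. Strand use in the counting was not given in the sources used here, so reads from these overlaps cannot be told apart.

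RefSeq windows from 250 bases before to 50 after the start (GRCm38.p6) were available for 3 of the 4 genes and are printed because 2 of these genes, Anxa1 and Anxa11, rose in the same libraries and Anxa2 was not called. Capitals mark TATA boxes, searched as the letters TATAAA, and also GC boxes, for which the letters searched were GGGCGG. Both strands were searched, so that a box on the other strand shows as its reverse complement. No match overlapped another.
Anxa1, chr19:20390622-20390921, minus strand: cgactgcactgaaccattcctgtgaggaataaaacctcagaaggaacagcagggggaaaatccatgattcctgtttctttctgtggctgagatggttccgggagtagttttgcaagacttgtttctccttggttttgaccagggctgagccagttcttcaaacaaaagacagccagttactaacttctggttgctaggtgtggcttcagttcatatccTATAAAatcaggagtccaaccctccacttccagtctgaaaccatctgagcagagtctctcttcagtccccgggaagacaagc
Anxa2, chr9:69453433-69453732, plus strand: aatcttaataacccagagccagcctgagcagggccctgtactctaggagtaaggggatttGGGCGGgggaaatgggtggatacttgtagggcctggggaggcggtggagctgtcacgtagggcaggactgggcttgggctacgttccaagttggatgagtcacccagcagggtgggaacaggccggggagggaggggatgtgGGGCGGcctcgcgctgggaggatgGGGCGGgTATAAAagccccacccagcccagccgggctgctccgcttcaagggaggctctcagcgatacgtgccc
Anxa11, chr14:25841905-25842204, plus strand: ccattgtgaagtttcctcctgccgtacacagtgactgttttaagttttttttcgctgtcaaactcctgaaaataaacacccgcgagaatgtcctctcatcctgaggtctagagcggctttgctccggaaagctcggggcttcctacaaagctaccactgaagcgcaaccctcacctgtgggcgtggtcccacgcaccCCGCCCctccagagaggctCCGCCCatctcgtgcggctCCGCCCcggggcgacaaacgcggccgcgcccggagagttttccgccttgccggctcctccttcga
The Anxa1 window held 1 TATAAA, 32 bases before the start, no GGGCGG and 3 CpG pairs, with a GC content of 47.3%. The Anxa2 window held 1 TATAAA, 17 bases before the start, 3 GGGCGG and 13 CpG pairs. The Anxa11 window held no TATAAA, 3 GGGCGG and 25 CpG pairs. Among 32851 windows of the same length, 13.6% held TATAAA and 35.7% held GGGCGG, and the median CpG count was 7. The E-box CACGTG (7.15% of windows) and the glucocorticoid receptor motif TGTTCT (19.0%) had no match in these 3 windows. These matches describe letters in a window, not binding. The start here is that of RefSeq, and for Anxa1 and Anxa2 it lies inside the gene span printed above. The whole Anxa1 window lies inside that span, so its letters are not upstream of the gene as given there.

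The libraries held 4082276 to 6678645 recovered reads, and the gene with most reads, Gm42418, took 5.76% to 12.0% of a library. The label of the Cxcr4 mutants was checked by the Cxcr4 transcript, at 13.2 to 26.2 normalised reads there and 268 to 553 in wild type at ZT5. The Cxcr2 transcript was at 1354 and 1439 in the libraries labelled Cxcr2 mutant, within the 1321 to 2219 of wild type at ZT5. Arntl, the gene that encodes Bmal1, was at 0 to 4.37 in the libraries labelled Bmal1 mutant and 2.68 to 12.7 in wild type at ZT5. It was as low elsewhere, at 0 to 5.07 in wild type at ZT13 and 0 to 4.84 in the Cxcr4 mutants. The libraries labelled Cxcr2 mutant held 0 and 3.91. The groups labelled Cxcr2 and Bmal1 mutant are therefore called here by their labels. No marker of the neutrophil list was at 0 in any group. WT ZT5 replicate 5 stood apart, with the lowest Anxa1, Anxa2 and Anxa11 of its group and the highest Ahnak.

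Anxa1 had the highest level of the 4 in every group per kilobase of exon, and its level in every Cxcr4 mutant library was above that in any other library. Its normalised read counts were 2639, 3346 and 3053 in the Cxcr4 mutants, 927 and 1105 in the Cxcr2-labelled libraries and 726, 909 and 788.5 in the Bmal1-labelled libraries. The wild-type libraries held 946, 830 and 729 at ZT13 and 442, 688 and 752 at ZT5. The 3 Cxcr4 mutants lay above all 11 other libraries, among which no value passed 1105. The share of all genes that part these libraries in the same way was not counted, here or for the genes below. In pairs, the Cxcr4 mutants and wild type at ZT5 did not overlap for 26.2% of all genes. Behind these values stood 13210 to 16449 reads in the Cxcr4 mutants and 2991 to 5417 in the rest.

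Anxa2 gave a different picture, and its level in the Cxcr4 mutants overlapped that of every other group. It had 462, 619 and 552 normalised reads in the Cxcr4 mutants, 576 and 650 in the Cxcr2-labelled libraries and 514, 531 and 527 in the Bmal1-labelled libraries. The wild-type libraries held 470.0, 512 and 510.1 at ZT13 and 262, 489 and 470.5 at ZT5. The lowest value was that of WT ZT5 replicate 5, and the other 13 libraries spanned 462 to 650.

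Anxa3 was the scarcest of the 4 and had the widest range. Its normalised read counts were 81.5, 73.8 and 108.5 in the Cxcr4 mutants, 12.1 and 8.50 in the Cxcr2-labelled libraries and 11.4, 19.2 and 18.1 in the Bmal1-labelled libraries. The wild-type libraries held 10.8, 7.19 and 6.82 at ZT13 and 3.43, 1.27 and 7.62 at ZT5. These rest on 363 to 583 reads per library in the Cxcr4 mutants and only 6 to 37 in wild type at ZT5, so the low values carry a large counting error. The Cxcr4 mutants again lay above all other libraries, and the Bmal1-labelled libraries lay above both wild-type groups. The Bmal1-labelled libraries lay apart from wild type at ZT5 for 17.9% of all genes, and the share for ZT13 was not counted.

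Anxa11 had 237, 184 and 214 normalised reads in the Cxcr4 mutants, 82.2 and 95.1 in the Cxcr2-labelled libraries and 67.6, 89.1 and 127 in the Bmal1-labelled libraries. The wild-type libraries held 112, 119 and 134.5 at ZT13 and 83.8, 143 and 108 at ZT5. The Cxcr4 mutants were above all other libraries, by a narrower gap than for Anxa1 or Anxa3. The other groups overlapped, except that the Cxcr2-labelled libraries lay below wild type at ZT13, a pair whose share of all genes was not counted.

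**Figure D1:**
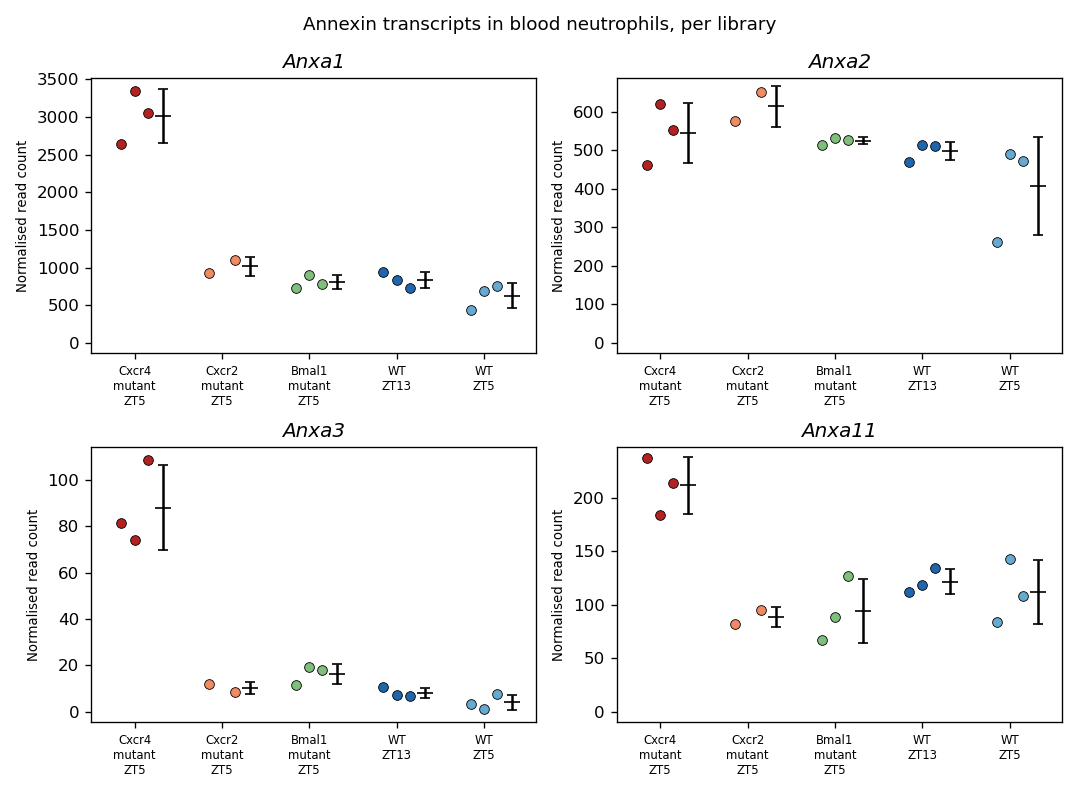
Normalised read counts of the 4 annexin genes in each library (points), by group, with the mean and SD of the group beside them (n = 3, and n = 2 for the Cxcr2-labelled libraries). For Anxa1 the Cxcr4 mutants sit between 2639 and 3346 and no other library passes 1105, while for Anxa2 the Cxcr4 mutants, at 462 to 619, overlap every other group.

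The order of the group means was described for each gene. For Anxa1 it ran from the Cxcr4 mutants (3013 ± 356, SD, n = 3) through the Cxcr2-labelled libraries (1016 ± 126, n = 2), wild type at ZT13 (835 ± 109, n = 3) and the Bmal1-labelled libraries (808 ± 92.9, n = 3) to wild type at ZT5 (627 ± 163, n = 3). The step below the Cxcr4 mutants was the only one of these 4 steps between groups that did not overlap. For Anxa2 the order ran from the Cxcr2-labelled libraries (613 ± 52.5) to the Cxcr4 mutants (544 ± 78.7), the Bmal1-labelled libraries (524 ± 8.79), wild type at ZT13 (497 ± 23.8) and wild type at ZT5 (407 ± 126). Neighbours there differed by at most 0.34 on the log2 scale (SE 0.20), and the Bmal1-labelled libraries and wild type at ZT13 were the only neighbours that did not overlap. For Anxa3 it ran from the Cxcr4 mutants (87.9 ± 18.2) to the Bmal1-labelled libraries (16.2 ± 4.19), the Cxcr2-labelled libraries (10.3 ± 2.56), wild type at ZT13 (8.28 ± 2.21) and wild type at ZT5 (4.11 ± 3.23), and all steps but that below the Cxcr4 mutants overlapped. For Anxa11 it ran from the Cxcr4 mutants (212 ± 26.6) to wild type at ZT13 (122 ± 11.4), wild type at ZT5 (112 ± 29.9), the Bmal1-labelled libraries (94.6 ± 30.1) and the Cxcr2-labelled libraries (88.7 ± 9.12), again with overlap below the Cxcr4 mutants.

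The deletion of Cxcr4, the receptor that retains neutrophils in bone marrow, was compared with wild type at ZT5. Differences were tested with limma on log2(value + 1) over the 11255 genes whose mean value reached 1, with Benjamini-Hochberg adjustment and a threshold of 0.05. Anxa1, Anxa3 and Anxa11 rose, so that 3 of the 4 annexins were called, where 8.2% of all genes tested were called and 4.05% were called higher. Anxa1 was higher by 2.29 on the log2 scale (SE 0.19, adjusted p = 6.28e-09), a ratio of means of 4.80. Anxa3 was higher by 4.31 (SE 0.57, adjusted p = 1.45e-05), a ratio of means of 21.4, and log2(value + 1) understates the change of so low a gene. Anxa11 was higher by 0.94 (SE 0.25, adjusted p = 0.0160), a ratio of means of 1.90. That call was lost when single libraries were left out: without WT ZT5 replicate 5 the difference was 0.75 (adjusted p = 0.0882), without Cxcr4 replicate 2 it was 0.86 (adjusted p = 0.0752) and without Cxcr4 replicate 5 it was 0.93 (adjusted p = 0.0592). Anxa2 differed by 0.46 (95% interval 0.05 to 0.87, adjusted p = 0.171) and was not called. The median log2 difference of the 4 genes was 1.62, against -0.11 over all genes tested. Groups did not overlap for Anxa1, Anxa3 and Anxa11, nor for 26.2% of all genes.

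Markers of other cells and of neutrophil granules moved with this comparison. Of 11 neutrophil markers, 9 were called higher in the Cxcr4 mutants, where their summed level was 37744 to 49209 normalised reads, against 10188 to 18260 in wild type at ZT5. The granule genes Ltf (3626 ± 627 in the Cxcr4 mutants and 31.1 ± 11.7 in wild type, SD, n = 3 each) and Camp (2182 ± 304 and 17.4 ± 8.75) were among them. Of 9 monocyte markers, 6 were lower and 1 higher, with sums of 629 to 664 in the Cxcr4 mutants and 1059 to 1797 in wild type. Of 10 B cell markers, 8 were lower, with sums of 95.1 to 176 in the Cxcr4 mutants and 463 to 3500 in wild type. Of 7 red cell markers, 6 were lower, with sums of 4111 to 13743 in the Cxcr4 mutants and 21024 to 66385 in wild type. None of the 6 platelet markers was called, although Gp1bb was at 0 in the mutants and the sums were 35.0 to 73.2 there and 41.7 to 487 in wild type. The part of these shifts in the annexin differences was not tested. In bulk samples, fewer cells of a type and less RNA per cell cannot be told apart.

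**Figure D2:**
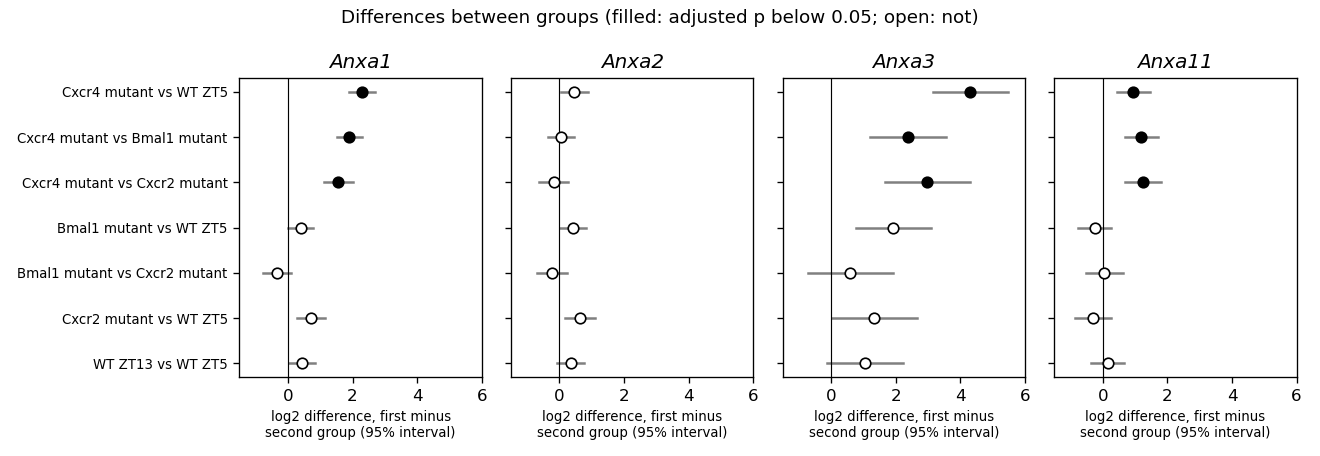
Log2 differences of the 4 annexin genes in 7 comparisons, first group minus second, with the 95% interval of the limma fit. Filled points passed an adjusted p of 0.05. Anxa1, Anxa3 and Anxa11 are filled in the 3 comparisons of the Cxcr4 mutants and open elsewhere, and Anxa2 is open throughout.

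The Cxcr4 mutants were next set against the other groups that carry the Cre, which asks whether the annexin levels differ between genotypes that share it. Against the Cxcr2-labelled libraries, 3 of the 4 genes were called higher, where 4.13% of all genes were called and 2.28% higher. Anxa1 was higher by 1.57 (SE 0.21, adjusted p = 2.50e-05), Anxa3 by 2.97 (SE 0.64, adjusted p = 0.00490) and Anxa11 by 1.24 (SE 0.28, adjusted p = 0.00687). Anxa2 differed by -0.18 (95% interval -0.64 to 0.28, adjusted p = 0.749). The Anxa3 call was lost without Cxcr2 replicate 5 (2.74, adjusted p = 0.0687) and the Anxa11 call without Cxcr2 replicate 4 (1.14, adjusted p = 0.108), each of which leaves a lone Cxcr2-labelled library that is assumed to vary like the other groups. Groups did not overlap for these 3 genes, nor for 33.4% of all genes. Of 11 neutrophil markers, 6 were higher in the Cxcr4 mutants and 1 lower, with sums of 37744 to 49209 there and 23101 to 27104 in the Cxcr2-labelled libraries. Of 7 red cell markers, 6 were lower, with sums of 4111 to 13743 in the Cxcr4 mutants and 60925 to 65648 in the Cxcr2-labelled libraries, and the part of these shifts was not tested.

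Against the Bmal1-labelled libraries, the same 3 genes were called higher, where 5.7% of all genes were called and 3.19% higher. Anxa1 was higher by 1.90 (SE 0.19, adjusted p = 1.48e-07), Anxa3 by 2.38 (SE 0.57, adjusted p = 0.00955) and Anxa11 by 1.196 (SE 0.25, adjusted p = 0.00265). The Anxa3 call was lost without Cxcr4 replicate 5 (2.22, adjusted p = 0.0741). Groups did not overlap for these 3 genes, nor for 23.6% of all genes. Anxa2 differed by 0.04 (95% interval -0.37 to 0.45, adjusted p = 0.939), and its sign turned under quantile normalisation. Of the red cell markers, all 7 were lower in the Cxcr4 mutants than in the Bmal1-labelled libraries, whose sums were 58327 to 117020, and 7 of 11 neutrophil markers were higher and 1 lower. Of 9 monocyte markers 1 was higher and none lower in each of these 2 comparisons, with sums of 496 to 597 in the Bmal1-labelled and 616 to 635 in the Cxcr2-labelled libraries. B cell markers were called lower for 1 of 10 against the Bmal1-labelled libraries and 0 of 10 against the Cxcr2-labelled ones. The monocyte sums of the Cxcr4 mutants, 629 to 664, thus lay close to those of both groups. The comparisons of the Cxcr4 mutants share the Cxcr4 libraries and are not independent of each other.

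The Cxcr2-labelled libraries were compared with wild type at ZT5. No annexin was called by limma or by edgeR, which called 0.666% and 0.151% of all genes, and DESeq2 called 1 where it called 3% of all genes. At an unadjusted p below 0.05, limma gave 3 of the 4 annexins and 13.5% of all genes. Anxa1 differed by 0.73 (95% interval 0.29 to 1.16, adjusted p = 0.108), Anxa2 by 0.64 (0.18 to 1.10, adjusted p = 0.174), Anxa3 by 1.34 (0.03 to 2.64, adjusted p = 0.357) and Anxa11 by -0.30 (-0.87 to 0.27, adjusted p = 0.691). Both Cxcr2-labelled libraries lay above all 3 wild-type libraries for Anxa1, Anxa2 and Anxa3, as 30.4% of all genes lay apart in either direction in this comparison. Of 9 monocyte markers, 2 were lower in the Cxcr2-labelled libraries, with sums of 616 to 635 there and 1059 to 1797 in wild type. Of 10 B cell markers, 2 were lower, with sums of 243 to 269 in the Cxcr2-labelled libraries and 463 to 3500 in wild type. Of 11 neutrophil markers 1 was higher, and the part of these markers in the annexin values was not tested.

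The Bmal1-labelled libraries were compared with wild type at ZT5, though the Arntl values above do not show the loss of the clock protein. No annexin was called by limma or by edgeR, which called 1.02% and 0.319% of all genes, and DESeq2 called 1 where it called 2.45% of all genes. At an unadjusted p below 0.05, limma gave 3 of the 4 annexins and 13.5% of all genes. Anxa3 differed by 1.93 (95% interval 0.76 to 3.10, unadjusted p = 0.00229, adjusted p = 0.1004 by limma), with 11.4 to 19.2 normalised reads in the Bmal1-labelled libraries and 1.27 to 7.62 in wild type. Anxa1 differed by 0.39 (0.00 to 0.79, adjusted p = 0.364), Anxa2 by 0.42 (0.01 to 0.83, adjusted p = 0.362) and Anxa11 by -0.25 (-0.76 to 0.26, adjusted p = 0.729). Groups lay apart for Anxa2 and Anxa3, as for 17.9% of all genes. Of 9 monocyte markers, 4 were lower in the Bmal1-labelled libraries, with sums of 496 to 597 there and 1059 to 1797 in wild type. Of 10 B cell markers, 2 were lower, with sums of 293 to 410.1 in the Bmal1-labelled libraries and 463 to 3500 in wild type. Of the neutrophil and the red cell markers 1 each was higher, and the part of these markers in the annexin values was not tested.

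Wild-type neutrophils at ZT13 were compared with those at ZT5, which asks about the time of day. No annexin was called by limma, edgeR or DESeq2, which called 0.08%, 0.0266% and 0.956% of all genes. In limma 1 of the 4 annexins, and 10.6% of all genes, had an unadjusted p below 0.05. Anxa1 averaged 835 ± 109 normalised reads at ZT13 and 627 ± 163 at ZT5 (SD, n = 3 each), a log2 difference of 0.44 (95% interval 0.05 to 0.83, adjusted p = 0.398). Anxa2 differed by 0.34 (-0.07 to 0.75, adjusted p = 0.573), Anxa3 by 1.04 (-0.13 to 2.21, adjusted p = 0.535) and Anxa11 by 0.15 (-0.36 to 0.66, adjusted p = 0.891). The groups overlapped for all 4 genes and lay apart for 16.5% of all genes. Without WT ZT5 replicate 5 the Anxa1 difference was 0.21, the Anxa2 difference 0.05 and the Anxa11 difference -0.04. Of 10 B cell markers 1 was called lower at ZT13, with sums of 118 to 403 there and 463 to 3500 at ZT5. None of 9 monocyte, 11 neutrophil or 7 red cell markers was called. The monocyte sums were 498 to 916 at ZT13 and 1059 to 1797 at ZT5. The part of these markers in the annexin values was not tested.

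Between the Bmal1-labelled and the Cxcr2-labelled libraries no annexin was called by limma, edgeR or DESeq2, which called 0.133%, 0.0443% and 0.761% of all genes. In limma none of the 4, and 8.01% of all genes, had an unadjusted p below 0.05. Anxa1 differed by -0.33 (95% interval -0.77 to 0.11, adjusted p = 0.742), Anxa2 by -0.22 (-0.68 to 0.23, adjusted p = 0.841), Anxa3 by 0.59 (-0.71 to 1.90, adjusted p = 0.854) and Anxa11 by 0.05 (-0.52 to 0.62, adjusted p = 0.982). Groups lay apart for Anxa1 and Anxa2, both lower in the Bmal1-labelled libraries, as for 21.7% of all genes. In limma's F-test of any difference among the 5 groups, which called 7.85% of all genes, Anxa1 (adjusted p = 4.68e-08), Anxa3 (adjusted p = 1.24e-04) and Anxa11 (adjusted p = 0.00868) were called and Anxa2 (adjusted p = 0.264) was not. The Anxa11 call was lost without Cxcr4 replicate 2 (adjusted p = 0.0732) or Cxcr4 replicate 5 (adjusted p = 0.0589).

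The makeup of the annexin transcripts was described per kilobase of exon over the 9 annexins in the table. Their summed level was 1254 to 1523 normalised reads per kilobase in the Cxcr4 mutants and 329 to 611 in the other 11 libraries. Anxa1 made up 72.3% to 75.5% of it in the Cxcr4 mutants and 46.2% to 62.1% elsewhere, and Anxa2 made up 9.88% to 10.9% in the Cxcr4 mutants and 21.3% to 30.2% elsewhere. The ratio of Anxa1 to Anxa2 within a library, which does not depend on the scaling of libraries, was 7.32, 6.93 and 7.09 in the Cxcr4 mutants and 1.801 to 2.58 in all others. Against wild type at ZT5 it averaged 7.11 in the Cxcr4 mutants and 2.005 in wild type, with a two-sided exact permutation p of 0.1, the smallest that 3 against 3 libraries can give. Against the Cxcr2-labelled libraries (2.12) the exact permutation p was 0.2, the smallest that 3 against 2 can give.

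**Figure D3:**
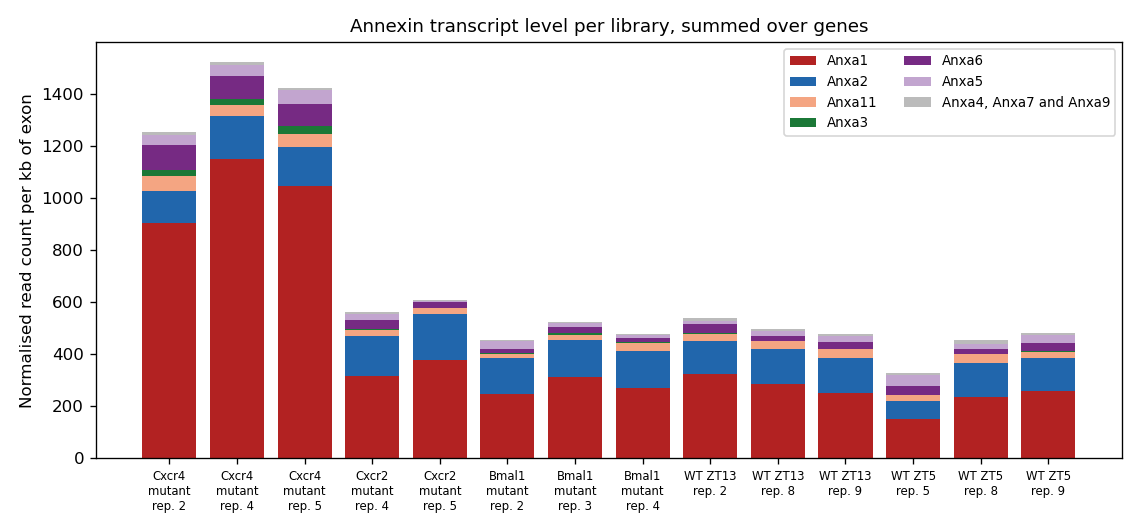
Normalised read counts per kilobase of exon in each library, stacked over the annexin genes. The bars of the 3 Cxcr4 mutants reach 1254 to 1523, made up mainly of Anxa1, and those of the other 11 libraries 329 to 611.

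The other annexins in the table were Anxa4, Anxa5, Anxa6, Anxa7 and Anxa9, while Anxa8, Anxa10 and Anxa13 were not analysed here. Anxa6, the largest annexin, with a duplicated core, rose with Anxa1 in the Cxcr4 mutants. It had 281, 266 and 247 normalised reads in the Cxcr4 mutants, 104 and 60.2 in the Cxcr2-labelled libraries and 46.6, 68.1 and 45.7 in the Bmal1-labelled libraries. The wild-type libraries held 106, 51.6 and 78.4 at ZT13 and 108, 58.7 and 92.1 at ZT5, so that the Cxcr4 mutants lay above all others. Its log2 difference was 1.65 against wild type at ZT5 (SE 0.29, adjusted p = 4.60e-04), 1.73 against the Cxcr2-labelled libraries (SE 0.32, adjusted p = 0.00128) and 2.31 against the Bmal1-labelled libraries (SE 0.29, adjusted p = 5.48e-06). The second of these calls was lost without Cxcr2 replicate 5 (adjusted p = 0.0758). Anxa5, which binds phosphatidylserine and is used as a label of dying cells, had 65.9, 74.9 and 94.5 in the Cxcr4 mutants and 44.1 and 12.4 in the Cxcr2-labelled libraries. That difference of 1.68 was called (adjusted p = 0.0380), but 9 of 26 alternatives did not call it, among them those without Cxcr2 replicate 5 or any Cxcr4 replicate (adjusted p up to 0.502). Anxa4 and Anxa7 were called in no comparison. Anxa9 had 0, 0.558 and 1.04 in the Bmal1-labelled libraries and 3.94 to 15.6 in wild type at ZT5, a difference of -2.50 (95% interval -4.14 to -0.86) that was not called (adjusted p = 0.141). In all, 1 of the 5 was higher in the Cxcr4 mutants than in wild type at ZT5 and none lower. In that comparison 4.05% of all genes were called higher.

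**Figure D4:**
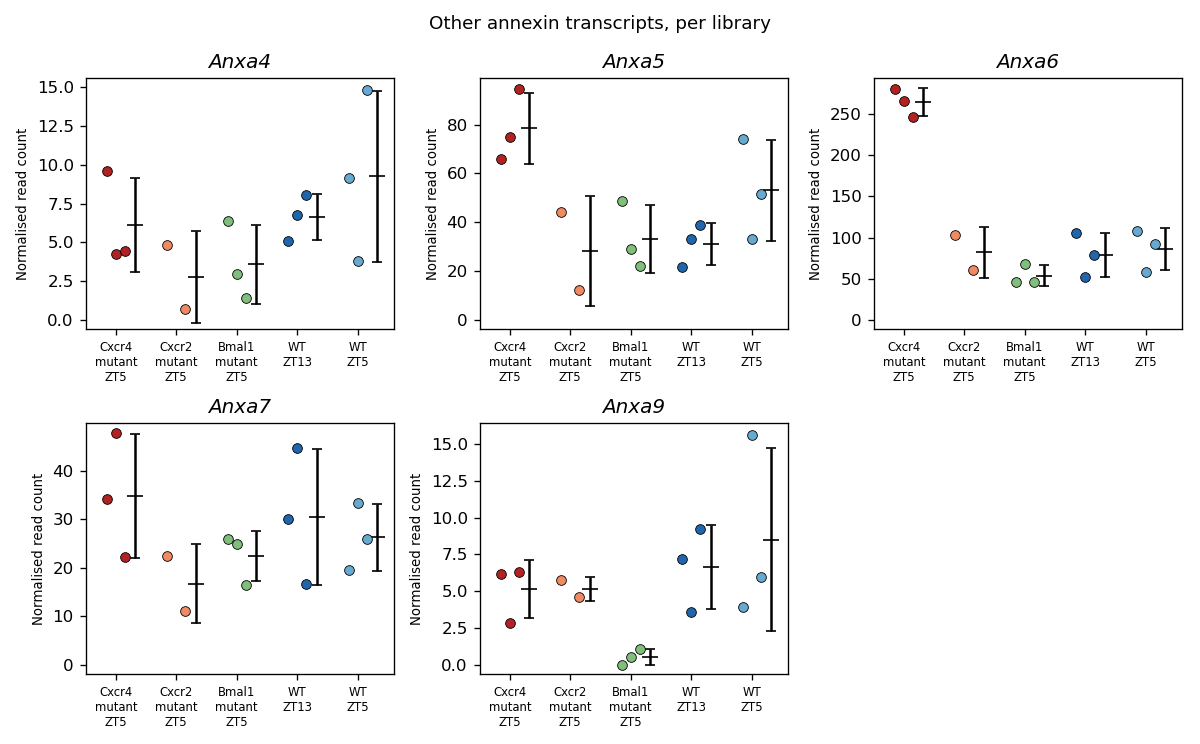
Normalised read counts of the 5 other annexins in each library (points), with group mean and SD (n = 3, and n = 2 for the Cxcr2-labelled libraries). The Cxcr4 mutants hold 247 to 281 for Anxa6, and no other library passes 108.

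Of the receptors of the Anxa1 tail, Fpr1 and Fpr2 were in the table and 5 others of the list were not analysed here. Both rose in the Cxcr4 mutants against wild type at ZT5, where 4.05% of all genes were called higher. Fpr2, the main receptor of the Anxa1 protein, had 457, 549 and 562 normalised reads in the Cxcr4 mutants and 112, 203 and 181 in wild type at ZT5. The log2 difference was 1.69 (SE 0.21, adjusted p = 4.86e-06). Fpr1, the high-affinity receptor of bacterial formyl peptides, had 222, 294 and 279 in the Cxcr4 mutants and 58.8, 117 and 140 in wild type at ZT5, a difference of 1.40 (SE 0.26, adjusted p = 7.09e-04). Against the Bmal1-labelled libraries both were also higher, Fpr1 by 1.18 (adjusted p = 0.00454) and Fpr2 by 0.98 (adjusted p = 0.00321). Against the Cxcr2-labelled libraries Fpr2 was higher by 0.79 (adjusted p = 0.0488), a call that 15 of 26 alternatives did not make, among them those without any single library of the Cxcr4, Cxcr2 or Bmal1 groups, WT ZT5 replicate 9 or WT ZT13 replicate 2 or 8 (adjusted p up to 0.272). Fpr1 differed there by 0.56 (adjusted p = 0.329). In the Cxcr2-labelled libraries Fpr2 had 287 and 313, above all wild-type libraries, and was not called against wild type at ZT5 (0.90, adjusted p = 0.0659). The proteases Elane and Prtn3, which cleave the Anxa1 tail, were not analysed here.

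Of the 4 S100 partners of annexins, 1 was higher in the Cxcr4 mutants than in wild type at ZT5 and 1 lower. In that comparison 8.2% of all genes were called. S100a6, a partner of Anxa11, had 362, 617 and 532 normalised reads in the Cxcr4 mutants, 601 and 568 in the Cxcr2-labelled libraries, 408, 415 and 406 in the Bmal1-labelled libraries and 165, 297 and 218 in wild type at ZT5. It was called higher than wild type in all groups that carry the Cre, by 1.16 in the Cxcr4 mutants (adjusted p = 6.87e-04), 1.41 in the Cxcr2-labelled libraries (adjusted p = 0.00472) and 0.89 in the Bmal1-labelled libraries (adjusted p = 0.0368). These share the same wild-type libraries. Of 26 alternatives, 12 did not make the call for the Bmal1-labelled libraries, among them those without any single library of that group, WT ZT5 replicate 5 or 9 or Cxcr4 replicate 5 (adjusted p up to 0.213). Of 26, 2 did not make that for the Cxcr2-labelled ones, among them that without Cxcr2 replicate 4 (adjusted p up to 0.0798). S100a10, the partner of Anxa2, had 0, 3 and 0 reads in the Cxcr4 mutants and 116, 70 and 67 reads in wild type at ZT5 (0 to 0.610 normalised reads in the mutants and 13.8 to 14.8 in wild type), and it was called lower (adjusted p = 0.0117). At ZT13 it spanned 0.873 to 19.4, so its level also varied within a group. S100a10 was also low in the Cxcr2-labelled libraries (0.882 and 4.82) and the Bmal1-labelled libraries (0.168, 6.51 and 4.35). Neither of these groups was called lower than wild type at ZT5, and the Cxcr4 mutants were not called against either of them. S100a11, which binds Anxa1, averaged 155 ± 50.4 in the Cxcr4 mutants and 105 ± 23.9 in wild type (difference 0.53, adjusted p = 0.285), and S100a4 was not called (adjusted p = 0.0591).

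Among 5 genes of the Anxa2 scaffold and the plasminogen system, Ahnak and Plaur were called. In the comparisons named here, 0.666% to 8.2% of all genes were called. Ahnak, a giant scaffold protein that Anxa2 and S100a10 bind, had 917, 1305 and 1124 normalised reads in the Cxcr4 mutants, 64.4 and 76.5 in the Cxcr2-labelled libraries, 84.7, 58.0 and 61.4 in the Bmal1-labelled libraries and 1091, 372 and 629 in wild type at ZT5. Wild type at ZT13 held 127, 341 and 307 and was not compared with the mutant groups. Ahnak was lower than wild type at ZT5 in the Cxcr2-labelled libraries (-3.16 on the log2 scale, adjusted p = 3.44e-05) and in the Bmal1-labelled libraries (-3.22, adjusted p = 1.27e-06). The Cxcr4 mutants were higher than both of these groups, by 3.96 (adjusted p = 5.24e-08) and 4.02 (adjusted p = 2.99e-09). They did not differ past the threshold from wild type at ZT5 (0.80, 95% interval 0.14 to 1.45, adjusted p = 0.132). Plaur, the urokinase receptor, had 113, 155 and 177 in the Cxcr4 mutants and 64.9, 69.0 and 88.6 in wild type at ZT5, a difference of 0.98 (adjusted p = 0.0298) that 7 of 26 alternatives did not call, among them those without WT ZT5 replicate 5 or 8 or without Cxcr4 replicate 4 or 5 (adjusted p up to 0.353). It was higher by 1.47 against the Cxcr2-labelled libraries (adjusted p = 0.00511, and 0.0687 without Cxcr2 replicate 5) and by 1.47 against the Bmal1-labelled libraries (adjusted p = 0.00130).

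**Figure D5:**
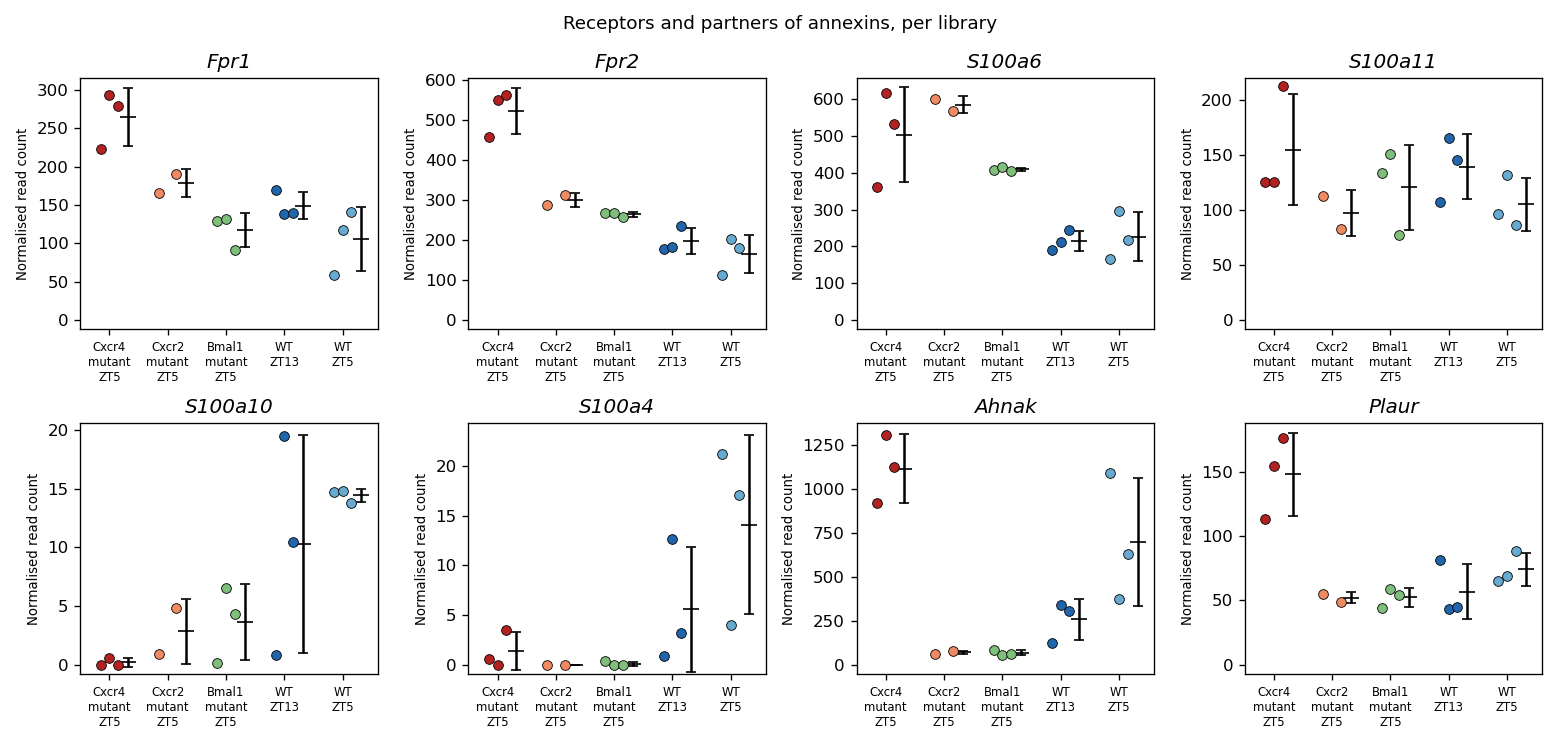
Normalised read counts of receptors and partners of annexins in each library (points), with group mean and SD (n = 3, and n = 2 for the Cxcr2-labelled libraries). Fpr2 is highest in the Cxcr4 mutants at 457 to 562. S100a10 has at most 0.610 there and 0.168 to 6.51 in the Cxcr2-labelled and Bmal1-labelled libraries. Ahnak lies between 58.0 and 84.7 in the Cxcr2-labelled and Bmal1-labelled libraries.

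Of 9 genes tested that take part in membrane repair or bind Anxa11 or Anxa7, none was higher in the Cxcr4 mutants than in wild type at ZT5. In that comparison 8.2% of all genes were called, and 1 of the 9 was lower. That gene was Capn2, a calpain subunit, with 0 to 5.90 normalised reads in the Cxcr4 mutants and 16.5 to 28.5 in wild type (-3.06, adjusted p = 0.0182). The call was lost in 5 of 25 alternatives, among them those without WT ZT5 replicate 5 or 9 or without Cxcr4 replicate 2 (adjusted p up to 0.186). Sri, the calcium sensor that binds Anxa7, averaged 387 ± 47.7 in the Cxcr4 mutants, 184 ± 41.3 in the Bmal1-labelled libraries and 232 ± 31.5 in wild type at ZT5. It was called against the Bmal1-labelled libraries (1.08, adjusted p = 0.00469) but not against wild type (0.74, adjusted p = 0.0532). Pdcd6ip, the Alix protein that binds Pdcd6, was called against the Bmal1-labelled libraries (0.92, adjusted p = 0.0499), and 15 of 26 alternatives did not make that call, among them those without any single Bmal1-labelled library, Cxcr4 replicate 2 or 4, Cxcr2 replicate 5, WT ZT5 replicate 9 or WT ZT13 replicate 8 or 9 (adjusted p up to 0.208).

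Glucocorticoids are known to induce ANXA1 in human leukocytes, so the receptor and its classic targets were read beside it. Of 9 tested, 2 were higher in wild type at ZT13 than at ZT5 and none lower, while Anxa1 itself was not called. Of all genes, 0.08% were called there. Fkbp5, a chaperone of the receptor, had 87.9 to 250.2 normalised reads at ZT13 and 25.8 to 48.2 at ZT5 (2.18, adjusted p = 0.00381). That call was lost without WT ZT13 replicate 2 or 9 and when only these 2 groups were fitted (adjusted p up to 0.114). Il1r2, the decoy receptor of interleukin-1, had 325 to 338 at ZT13 and 94.7 to 152.6 at ZT5 (1.48, adjusted p = 0.00171). In the Cxcr4 mutants, where Anxa1 was highest, none of the 9 was called higher than in wild type at ZT5 and 2 were called lower. Of all genes, 8.2% were called in that comparison. Of the 9 differences, 4 were positive, and their median was -0.018 on the log2 scale. Fkbp5 averaged 34.7 ± 6.06 in the Cxcr4 mutants and 35.9 ± 11.4 in wild type at ZT5 (-0.02, 95% interval -0.72 to 0.68), and Per1, a clock gene that the receptor also induces, differed by -1.28 (adjusted p = 4.80e-04). Dusp1, a phosphatase of MAP kinases, differed by -0.80 (adjusted p = 0.0375), a call that 11 of 26 alternatives did not make, among them those without WT ZT5 replicate 8 or 9, Cxcr4 replicate 4 or 5, Bmal1 replicate 3 or either Cxcr2-labelled library (adjusted p up to 0.245). The receptor gene Nr3c1 averaged 352 ± 35.2 in the Cxcr4 mutants and 285 ± 42.8 in wild type (0.31, adjusted p = 0.345). Tsc22d3 averaged 330 ± 37.0 in the Cxcr4 mutants and 232 ± 7.54 in wild type at ZT5, and was not called. Against the Bmal1-labelled libraries Tsc22d3 was called higher and 2 of the 9 lower, but 6 of 26 alternatives did not call Tsc22d3. Against the Cxcr2-labelled libraries none was higher and 3 were lower. Of all genes, 5.7% were called against the Bmal1-labelled and 4.13% against the Cxcr2-labelled libraries. The part of glucocorticoids in the Anxa1 differences was not tested.

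Anxa1 was long known as lipocortin, an inhibitor of the phospholipase that feeds prostaglandin and leukotriene synthesis, so 6 genes of that synthesis were listed. None was higher in the Cxcr4 mutants than in wild type at ZT5 and 1 was lower, where 8.2% of all genes were called. Ptgs2, the inducible cyclooxygenase, had 9.30 to 33.6 normalised reads in the Cxcr4 mutants and 268 to 382 in wild type at ZT5 (-4.35, SE 0.34, adjusted p = 2.07e-09). It was also lower in the Cxcr4 mutants than in the Cxcr2-labelled (-4.64, adjusted p = 1.34e-08) and the Bmal1-labelled libraries (-4.75, adjusted p = 5.46e-10). Lta4h, which makes leukotriene B4, was higher in the Cxcr4 mutants than in the Cxcr2-labelled libraries (3.01, adjusted p = 0.00696), a call lost with edgeR and without Cxcr2 replicate 4 (adjusted p up to 0.231).

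The genes whose log2 values followed each annexin most closely over the 14 libraries were named as a description, among 6249 genes whose mean log2 value reached 3. The libraries fall into the same 5 groups for every gene, and the 3 Cxcr4 mutants lie apart for Anxa1, Anxa3 and Anxa11, so the values behind Pearson's r share that gap. For Anxa1 they were Cd177 (r = 0.963), a neutrophil surface protein, Actn1 (0.962), an actin crosslinker, Lmo4 (0.961), Retnlg (0.961) and Sort1 (0.960). For Anxa2 they were Rac2 (0.961), a small GTPase of the oxidase and of migration, Lcp1 (0.943), an actin bundler of leukocytes, Tmem59 (0.933), Cap1 (0.929) and Fam129a (0.920). For Anxa3 they were Cmpk2 (0.924), Actr3 (0.909), a subunit of the Arp2/3 complex, Hipk2 (0.909), Psd4 (0.907) and Degs1 (0.904). For Anxa11 they were Dusp16 (0.964), Tnrc6b (0.915), Map3k9 (0.904), Lrrfip1 (0.885) and Slmap (0.875). No gene stood among the 5 nearest of more than 1 annexin.

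The antisense gene beside Anxa11 was read for the overlap named above. Anxa11os had 54.3, 16.5 and 43.3 normalised reads in the Cxcr4 mutants and 23.3, 19.6 and 20.0 in wild type at ZT5 (0.68, 95% interval -0.31 to 1.66, adjusted p = 0.470), and was not called in any comparison. Cxcr4 replicate 4 had the lowest Anxa11 and the lowest Anxa11os of its group. Gm16144, antisense to Anxa2, had at most 12.3 normalised reads in any library and was called in none of the comparisons.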

How the data were processed

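A single table was deposited by the authors, with normalized signal values of 11288 genes in 14 libraries. Per the labels' protocols, neutrophils were sorted from blood by Ly6G after red cell lysis, polyadenylated RNA was amplified with a single-cell kit (Ovation), and libraries were made with a TruSeq kit. Per the submitters' processing notes, CASAVA 1.8.2, cutadapt and RSEM 1.2.3 were used with GRCm38. How values were normalized was not given in the sources used here. In every library 100% of values were whole multiples of a constant (tolerance 1e-06), worth 0.127 to 0.244 per read, so reads were recovered. The values equalled CPM after TMM scaling, a unit computed here for comparison.

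Values were tested on log2(value + 1) with limma 3.58.1 (R 4.3.3), with an intensity trend, 1 fit over 14 libraries in 5 groups, a filter that kept 11255 genes of mean 1 or more, 7 comparisons and an F-test, and Benjamini-Hochberg adjustment over all genes at 0.05. The fit was checked on simulated data. Symbols were found for 11188 identifiers. Alternatives were a pseudocount of 0.1, other filters and scalings, array weights, only the groups compared, a replicate block, edgeR 4.0.16, DESeq2 1.42.0 and each library left out; for partner genes they were chosen after seeing the data. Members and lists were chosen with earlier results of these data known. The members are always named, as are other annexins in the table, up to 3 genes of smallest p per list and comparison, and the 5 genes most like each member by Pearson's r, without predicted genes. S100a4, S100a11 and Nr3c1 and some further partners are given as well, chosen after their values were seen.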

Additional observations from a re-analysis of the deposited data

Results flagged for a closer look

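Annexin levels differed between groups that carry the Cre, by the direct test of one such group against another. Marker sums also differed between these groups, and their part was not tested. Against the Cxcr2-labelled libraries, the Cxcr4 mutants were higher by 1.57 on the log2 scale for Anxa1, 2.97 for Anxa3 and 1.24 for Anxa11. Against the Bmal1-labelled libraries they were higher by 1.90 for Anxa1, 2.38 for Anxa3 and 1.196 for Anxa11. All 6 differences passed an adjusted p of 0.05 in limma, as did 4.13% of all genes against the Cxcr2-labelled and 5.7% against the Bmal1-labelled libraries. For these 3 genes every Cxcr4 mutant library lay above every library it was compared with. Groups also lay apart for 33.4% and 23.6% of all genes. The calls of Anxa3 in both comparisons, and of Anxa11 against the Cxcr2-labelled libraries, were each lost when a single library was left out, as given above. Anxa2 passed in neither comparison.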

How the results depend on the processing

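Under 12 alternatives that kept all the libraries compared, the members gave 373 results with the same direction and call, 2 that gained a call and 1 that turned sign, and none lost a call. TMM scaling, 1 of these 12, equals the deposited values, so its results could not differ. It is also counted among the alternatives given for the partner genes. With DESeq2 the count of annexins called was 1 for the Bmal1-labelled libraries against wild type (Anxa3, 1.96, adjusted p = 0.0229) and 1 for the Cxcr2-labelled libraries (Anxa1, 0.67, adjusted p = 0.0363), against 0 in limma for both; the cause was not tested. Sign turned for Anxa2 between the Cxcr4 mutants and the Bmal1-labelled libraries under quantile normalization (-0.0561) and without Cxcr4 replicate 4 (-0.0530; 0.16 at most without another library). It turned for Anxa11 between wild type at ZT13 and ZT5 without WT ZT5 replicate 5 (-0.0365; 0.35 at most), and between the Bmal1-labelled and Cxcr2-labelled libraries without Bmal1 replicate 4 (-0.19) or Cxcr2 replicate 4 (-0.0555; 0.26 at most). None of these was called. With 1 library left out, 436 results were the same and 8 lost their call, as given beside each result; 2 to 3 annexins were called in each comparison of the Cxcr4 mutants and 0 in the others. For the partners, 20 of 37 called differences were called under every alternative and none turned sign. Quantile normalization moved the median of all genes by 0.10 to 0.15 in comparisons with wild type at ZT5, and totals without the largest gene by -0.12 to -0.155 in those of ZT13, the Bmal1-labelled and the Cxcr2-labelled libraries.

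Counts of all genes called varied more. They were 9 for ZT13 against ZT5 (3 to 91 over settings; 2 without WT ZT13 replicate 2 to 102 without WT ZT5 replicate 8), 115 for the Bmal1-labelled libraries (34 to 265; 23 without WT ZT5 replicate 5 to 190 without replicate 8), 75 for the Cxcr2-labelled libraries (12 to 318; 19 without Cxcr2 replicate 4 to 199 without WT ZT5 replicate 8) and 923 for the Cxcr4 mutants (564 to 1432; 596 without Cxcr4 replicate 5 to 945). They were 465 for the Cxcr4 mutants against the Cxcr2-labelled libraries (356 to 709; 237 without Cxcr2 replicate 4 to 616), 641 against the Bmal1-labelled libraries (432 to 866, and 455 to 823) and 15 between those groups (4 to 84; 6 without Cxcr2 replicate 5 to 18). The F-test called 883 (608 to 1149; 555 without Cxcr4 replicate 5 to 963).

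Some groups share replicate numbers, but over all genes libraries with the same number did not deviate together (correlations of -0.037 to 0.014). With 2 or 3 libraries a group these correlations cannot show whether such libraries share more than a number. With the replicate block the Cxcr4 mutants differed from wild type by 2.39 for Anxa1, 0.76 for Anxa2, 4.07 for Anxa3 and 1.17 for Anxa11, 3 annexins were called there, and no call of a member changed. Of the partner differences called, the block did not call 10. These were Anxa6 (adjusted p = 0.05001), S100a10 (0.232), Dusp1 (0.136), Capn2 (0.186) and Plaur (0.353) in the Cxcr4 mutants and S100a6 (0.146) in the Bmal1-labelled libraries against wild type, Anxa5 (0.0709) and Fpr2 (0.0740) between the Cxcr4 mutants and the Cxcr2-labelled libraries, and Pdcd6ip (0.182) and Sri (0.0818) between the Cxcr4 mutants and the Bmal1-labelled libraries. With 2 or 3 libraries a group, small differences may have gone uncalled, and Anxa3 also had only 6 to 37 reads in wild type at ZT5. No limit of detection was computed.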
